A study of Mus musculus with 3 samples.

Results

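Cardiosphere-derived cells (CDC) grown from mouse epicardium, by way of explants and floating spheres, were compared with primary epicardial cells (pEpiCs) across all genes. The members are the 3 CDC and the 3 pEpiC libraries, 6 of the 9 libraries of the series, and were taken by their column names. The other libraries, of an epithelial clone picked from CDC cultures, were not used in the comparison. Both kinds came from C57BL/6 mice and are labelled as heart ventricle epicardium. For CDC, the epicardium of 6-week-old mice was peeled off, explants were kept on fibronectin in a medium with serum, and the cells that grew out formed spheres on poly-D-lysine in a medium with bFGF, EGF, cardiotrophin-1, thrombin and B27 before they were plated on fibronectin again. For pEpiCs, adult hearts were digested with collagenase IV and trypsin and the cells were plated on gelatin in a DMEM and M199 mixture with less serum. Medium, coating, dissociation and time in culture therefore differ together with the kind of cell and cannot be told apart in what follows. The labels speak of separate samples of each kind but do not tie them to animals or cultures, so p-values measure the spread between these libraries, which may be technical. Each library summed to 22323767 to 22756045 estimated counts, and intervals and floors drawn from counts cover counting error only.

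The epicardium is the mesothelial sheet that covers the heart. In development its cells loosen from the sheet, enter the muscle and give rise to fibroblasts and mural cells, and in the adult heart this programme is largely silent until injury. Mesothelial cells are known by uroplakins, mesothelin, podoplanin and keratins, whereas cardiac fibroblasts are known by PDGF receptor alpha, Tcf21, lumican, decorin and, when activated, periostin. Cells put into culture often leave their resting state, divide and change the matrix they make.

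The labels were first set beside these markers. Of 24 mesothelial surface and keratin genes tested, 14 were higher and 10 lower in CDC than in pEpiCs, where 38.5% and 39.8% of all 13526 genes tested were called higher and lower (edgeR's quasi-likelihood test, Benjamini-Hochberg adjusted p under 0.05). Of 15 cardiac fibroblast markers, 1 was higher and 13 were lower in CDC, and their median log2 change was -2.78 against -0.02 over all genes. Members of both lists were detected in both kinds, though some were near absent from CDC or from pEpiCs. In pEpiCs the fibroblast markers summed to 37685 to 41506 CPM (counts scaled to a fixed library size after TMM normalization), led by Fn1 and the collagens, and in CDC to 13480.4 to 17847 CPM. The uroplakin Upk3b, a mesothelial surface protein, stood at 222, 240.4 and 234 CPM in CDC and 61.4, 65.6 and 77.1 CPM in pEpiCs. Pdpn, podoplanin, on the same list, went the other way, with a mean of 0.292 CPM in CDC and 285 CPM in pEpiCs. The pEpiC cultures are therefore described here by their label, with fibroblast markers at high level. In bulk RNA, fewer cells of a type and less RNA per cell cannot be told apart.

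RNA of other cells was present, at levels that differed between libraries. Of 110 macrophage markers tested, 102 were lower in CDC, and 46 had at most 3 counts in every CDC library, among them Ptprc, the leukocyte surface protein CD45, and Adgre1, the macrophage antigen F4/80. The whole list summed to 4280.2, 2572 and 2513 CPM in the pEpiC libraries and to 987 to 1205 CPM in CDC, where Saa3, an acute-phase protein, Apoe, Gpnmb and Lgmn, all of them also made by other cells, led it. Library 1 of pEpiC held 1.8 times the mean of libraries 2 and 3 or more for 87 of the list, with a median ratio of 2.67, against 1.002 over all genes tested. Red blood cell markers summed to 54.9, 86.5 and 0.182 CPM in CDC libraries 1 to 3. Alb, serum albumin, had 30.8, 27.7 and 0.0455 CPM in CDC, and Hba-a1, a haemoglobin chain, 24.4, 41.4 and 0 CPM. The liver list as a whole summed to 326 to 378 CPM in CDC and 128 to 144 CPM in pEpiCs. The cardiomyocyte list summed to 49.3, 49.8 and 20.5 CPM in CDC libraries 1 to 3 and to 149 to 164 CPM in pEpiCs. That difference in sum was not shared by most members. Of 9 tested, 2 were higher and 2 lower in CDC. With no filter on counts, 13 of 25 were higher and 2 lower, where 5447 of all 17966 genes were higher and 5659 lower. The liver and cardiomyocyte lists hold genes that other cells also express. Interferon-stimulated genes summed highest in library 3 of each kind, with 1495, 1542 and 2177 CPM in CDC and 1693, 1799 and 3028 CPM in pEpiCs. The Y-linked genes were detected in all libraries at 94.1 to 95.9 CPM in sum in CDC and 209 to 215 CPM in pEpiCs. For the complement, chemokine and lysosome lists below, counts are also given without macrophage markers and genes over 1.8 times in pEpiC library 1.

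Between the kinds, 10593 of 13526 genes passed the threshold, 5213 higher and 5380 lower in CDC. Without pEpiC library 1 the calls were 5136 higher and 5238 lower. With TPM in place of scaled counts the split was 2687 higher and 7571 lower, and the median log2 change of all genes moved from -0.02 to -0.43. With library size alone it moved to -0.13, and with an offset for transcript length to 0.12. Changes of at least 2-fold were found for 1948 genes higher (14.4% of those tested) and 2127 genes lower (15.7%) in CDC. Of the 2127, 237 were macrophage markers or exceeded 1.8 times the level of the other pEpiC libraries in library 1, which leaves 1890. Because short transcripts ran higher and long ones lower in CDC, each call was repeated with an offset per library that removes the smooth trend on transcript length. Transcript length means here the effective length of each gene that the deposited counts and FPKM imply, pooled over all libraries of the series. Of the 10593 calls, 8332 kept sign and call with the offset (33.7% of tested genes higher and 27.9% lower). In the offset fit taken alone, 6027 of the 13526 genes were higher and 4154 lower. Counts of list members given below with the length offset are calls in that fit and are to be read beside these numbers. Values with this length offset are given below where it changes a call or moves a fold by more than 1.5 times.

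The largest changes were sought among genes that reached a mean of 50 CPM in one kind, held their call and at least 2-fold change with the length offset, did not overlap between kinds, were not macrophage markers, and whose highest library in the higher kind was at most 1.8 times the lowest. This left 472 genes higher and 267 lower in CDC, of which the 25 at each end were taken. The top 25 rose at least 10.03-fold and the bottom 25 fell at least 52.4-fold, with adjusted p of at most 9.3e-07 in edgeR's test. Fgf23, the bone hormone that lowers blood phosphate, had 109, 111 and 129.5 CPM in CDC and 0.17, 0.0426 and 0.0858 CPM in pEpiCs, a log2 change of 10.11 ± 0.18 (SE). It was near absent from every pEpiC library. Igf2, the imprinted growth factor of fetal tissues, had 345, 362 and 450.0 CPM in CDC and 3.45, 2.86 and 3.6 CPM in pEpiCs, 117-fold higher. Nt5e encodes CD73, the surface enzyme that turns AMP into adenosine, and rose 32.7-fold, from 1.75, 1.66 and 1.93 to 54.3, 56 and 65 CPM. For these genes each CDC library stood above each pEpiC library. The rule of choice asked for this and for large changes, so neither the separation nor the adjusted p is support of its own. The list further held Npnt (21.8-fold), which encodes the integrin ligand nephronectin, Anxa8 (47-fold), an annexin, and Cd24a (10.6-fold), a glycosylated surface protein of immature cells. It also held Fosl1 (17-fold), a subunit of the AP-1 transcription factor, Il6 (14.2-fold), a cytokine, and Ly6k, a surface protein of the Ly6 family, which stood at 101 ± 3.13 CPM in CDC and 0.641 ± 0.0449 CPM in pEpiCs (SD, n = 3). Cenpa, the histone of the centromere, rose 10.4-fold, Lxn, the carboxypeptidase inhibitor latexin, 10.0-fold, Nrn1, the neuronal growth protein neuritin, 18.3-fold, and Dmrt2, a transcription factor of somites, 22.1-fold.

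Crct1, a gene of the epidermal differentiation complex on chromosome 3, had 86.6, 90.9 and 63.3 CPM in CDC and 1.58, 1.24 and 2.32 CPM in pEpiCs. That complex encodes proteins of the outer skin, and some other members were looked up after this value was seen. Lce1g, a late cornified envelope gene, had 50.2, 46.1 and 30.1 CPM in CDC, while every pEpiC library held at most 3 counts, so that it was at least 329-fold higher. Lce3d was at least 64.4-fold higher, with 8.26 ± 1.13 CPM in CDC. The S100 genes of the same complex, which encode small calcium-binding proteins, include S100a4, higher by 6.36-fold (3.07-fold with the length offset), and S100a6, higher by 4.88-fold (2.76-fold). Late cornified envelope genes are near copies of each other, so the share of reads given to each is uncertain.

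Among the 25 genes at the other end, Efemp1, which encodes the elastic fibre protein fibulin-3, had 151, 155 and 162 CPM in pEpiCs and 0, 0.185 and 0 CPM in CDC. Postn, the matricellular protein periostin, had 508, 498 and 566 CPM in pEpiCs and 0.14, 0.602 and 0.773 CPM in CDC. Pdpn, the mesothelial and lymphatic surface protein podoplanin, had 280.4, 278 and 297 CPM in pEpiCs and 0.233, 0.37 and 0.271 CPM in CDC. In Efemp1, Postn and Pdpn the CDC libraries lay near 0, while the narrow range of the pEpiC libraries was part of the rule of choice. Mmp2, the gelatinase that cleaves denatured collagen and basement membrane, fell 78.9-fold, from 1026 ± 43.2 to 13 ± 1.39 CPM. Gpx3, the secreted glutathione peroxidase, fell 337-fold, and Mfap4, a microfibril-associated protein, 292-fold. Cygb, the stromal globin cytoglobin, fell 52.4-fold, Gucy1a1, a subunit of the nitric oxide receptor guanylate cyclase, 199.6-fold, and Adamtsl2, a microfibril-binding protein, 478-fold. Dpt, the matrix protein dermatopontin, fell 113-fold, and Zfp521, a zinc finger transcription factor of stromal and stem cells, 63.4-fold (42.0-fold with the length offset). Il1rl2, the receptor for IL-36, had 55.1, 55 and 53.2 CPM in pEpiCs and 0.186, 0 and 0 CPM in CDC.

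**Figure D1:**
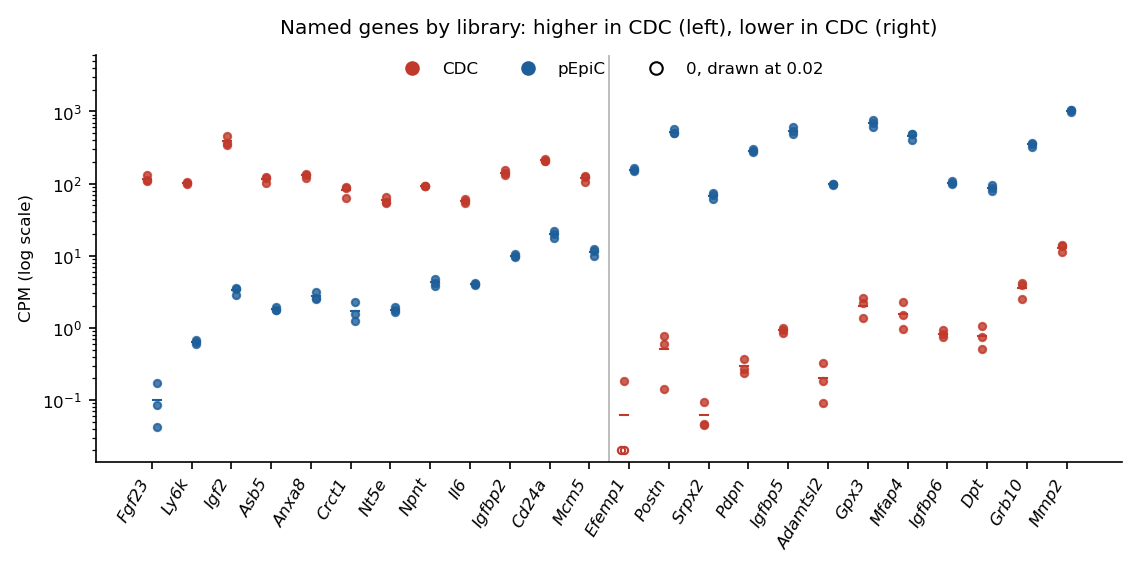
CPM in each library on a log axis for 12 genes higher and 12 genes lower in CDC, taken from the 25 at each end; points are libraries, bars are means and open circles are values of 0. The CDC libraries lie above all pEpiC libraries in the left 12 genes and below them in the right 12, which the rule of choice required.

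Genes of cell division rose together in CDC. All 46 mitosis genes on the list were higher, with a median log2 change of 2.51, and all 53 genes of DNA replication and S phase were higher, with a median of 2.14. Every one of them kept its call with the length offset and without pEpiC library 1, and without CDC library 1 or 2 all 46 and 52 of the 53 were called. Together the mitosis genes summed to 3413, 3336 and 3262 CPM in CDC and to 712, 573 and 624 CPM in pEpiCs, where library 1 was the highest. Cdk1, the kinase that starts mitosis, had 132, 141 and 118 CPM in CDC and 14.6, 13 and 14 CPM in pEpiCs. Cdc20, which activates the anaphase-promoting complex, had 119, 116 and 91.9 CPM and 11.3, 11 and 10.7 CPM. Neither gene had overlapping libraries. Mcm5, part of the replicative helicase, rose 10.3-fold, Rrm2, the ribonucleotide reductase subunit made in S phase, 8.22-fold, and Top2a, topoisomerase II alpha, 4.76-fold. The smallest rises were those of Smc4, a condensin subunit (1.55-fold), and of E2f2, an E2F transcription factor (1.59-fold). Mki67, the proliferation antigen Ki-67, was detected in pEpiCs too, with 71.3, 44.4 and 48.1 CPM there and 173, 144 and 169.6 CPM in CDC, a rise of 2.97-fold (5.11-fold with the length offset).

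The promoters of the mitosis genes share short sequence elements, and 4 are shown because these genes rose as a block. Windows from 250 bases before to 50 bases after the start (RefSeq, GRCm38.p6) were found for 38 of the 46 mitosis genes and for 10717 tested genes. The letters CCAAT, read on both strands, occurred in 73.7% of the mitosis windows against 38.8% of those of tested genes and 37.9% of all 27025 windows in the table. TTTGAA, the core of the cell cycle homology region, again on both strands, occurred in 78.9% against 11.9% and 18.1%. Both occurred together in 65.8% against 5.1% and 7.1%. Of the 42 windows of DNA replication genes, 14.3% held TTTGAA, 61.9% held CCAAT and 8 held GGCGGGAA, an E2F-type element found in 4.0% of the windows of tested genes and in none of the 38 mitosis windows. A match is a description of the letters and no test was made. CCAAT and TTTGAA, or their reverse complements ATTGG and TTCAAA, stand in capitals. The windows belong to Cdc20 at chr4:118437294-118437593 on the minus strand, Plk1 at chr7:122159185-122159484 on the plus strand, Cdk1 at chr10:69352863-69353162 on the minus strand and Ccnb2 at chr9:70421505-70421804 on the minus strand, each printed 5′ to 3′ along the gene, and each holds both elements.
Cdc20: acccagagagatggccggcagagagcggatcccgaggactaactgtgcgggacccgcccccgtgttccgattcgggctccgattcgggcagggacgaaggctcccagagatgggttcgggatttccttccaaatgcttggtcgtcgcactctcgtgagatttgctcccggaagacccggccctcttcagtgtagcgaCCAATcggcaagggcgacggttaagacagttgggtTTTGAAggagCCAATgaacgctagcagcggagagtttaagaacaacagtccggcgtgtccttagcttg
Plk1: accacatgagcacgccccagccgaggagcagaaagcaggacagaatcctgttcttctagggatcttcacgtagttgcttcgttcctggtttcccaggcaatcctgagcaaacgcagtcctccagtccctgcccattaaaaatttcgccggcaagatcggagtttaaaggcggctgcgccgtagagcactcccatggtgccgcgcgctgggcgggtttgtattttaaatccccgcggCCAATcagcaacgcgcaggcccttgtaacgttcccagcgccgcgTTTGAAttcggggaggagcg
Cdk1: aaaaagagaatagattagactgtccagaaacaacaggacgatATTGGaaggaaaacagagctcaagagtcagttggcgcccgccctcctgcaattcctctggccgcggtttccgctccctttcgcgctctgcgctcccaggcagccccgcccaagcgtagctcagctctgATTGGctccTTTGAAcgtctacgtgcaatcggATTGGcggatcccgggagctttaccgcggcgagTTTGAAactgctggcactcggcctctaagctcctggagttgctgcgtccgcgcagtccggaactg
Ccnb2: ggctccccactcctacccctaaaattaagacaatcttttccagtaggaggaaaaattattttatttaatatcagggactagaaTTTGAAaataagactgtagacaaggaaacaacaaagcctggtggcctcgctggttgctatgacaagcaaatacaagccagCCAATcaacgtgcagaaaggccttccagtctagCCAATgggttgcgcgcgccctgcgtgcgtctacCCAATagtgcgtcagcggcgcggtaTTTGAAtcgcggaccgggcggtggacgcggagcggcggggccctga

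Of 34 cell cycle inhibitors, cyclins and p53 targets, 15 were higher and 12 lower in CDC, beside 38.5% and 39.8% of all genes tested. With the length offset 21 were higher and 8 lower, at a median of 0.26, beside 6027 and 4154 of all 13526 genes. The list median of 0.02 turned negative with library size alone, TPM, FPKM or all 9 libraries in 1 fit, so no direction is given for the list. The G1 cyclin Ccnd1 rose 2.72-fold, Cdkn2c, which encodes the inhibitor p18, 4.16-fold, and Cdkn1a, the p53 target p21, 1.56-fold. Cdkn1c, the imprinted inhibitor p57, fell 10.9-fold, from 8.3 ± 1.33 to 0.753 ± 0.438 CPM.

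Among 65 genes with at least 5 CPM in pEpiCs and at most 3 counts in every CDC library, 32 were neither macrophage markers nor raised in pEpiC library 1, and they held a pair of cycle inhibitors. In the other direction 6 genes had at least 5 CPM in CDC and at most 3 counts in every pEpiC library. Besides these inhibitors the 32 held Srpx and Srpx2, related sushi-repeat proteins, at least 161-fold and 493-fold lower in CDC, Aspn, the proteoglycan asporin, at least 63.6-fold lower, Heyl, a target of Notch, at least 62-fold lower, and Eya2, a transcriptional coactivator, at least 87.8-fold lower. These genes were named after their values were seen.

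Cdkn2a, which encodes p16 and p19Arf and lies on chromosome 4 from 89274473 to 89294619 (RefSeq, GRCm38.p6), had 127, 140 and 154 counts in the pEpiC libraries and 0 counts in each CDC library. Cdkn2b, which encodes p15 and lies beside it from 89306289 to 89311032, had 412, 463 and 471 counts in pEpiCs and 0 in each CDC library. Against a floor of 3 counts per library, Cdkn2a was at least 43.3-fold and Cdkn2b at least 139-fold lower in CDC. The nearest neighbour above 5 CPM on the lower side, Mtap, a methionine salvage enzyme that starts 137 kb away, had 141, 141 and 155 CPM in CDC and 56.7, 62.2 and 58.8 CPM in pEpiCs, a rise of 2.46-fold. Further out on that side, Klhl9, a ubiquitin ligase adaptor, had 59.8 ± 4.2 CPM in CDC and 82.2 ± 5.23 CPM in pEpiCs. On the other side the next gene above 5 CPM in either kind was Tusc1, 4060 kb away, with 12 ± 1.76 CPM in CDC and 4.86 ± 0.345 CPM in pEpiCs (SD, n = 3). Mtap, Klhl9 and Tusc1 thus stood in CDC within 2.48-fold of their pEpiC level. Farther along, 5465 kb away, Tek, the angiopoietin receptor, was among the genes lower in CDC, with 0.123 ± 0.028 against 17.3 ± 1.22 CPM. RNA counts do not show the state of the DNA, which was not tested.

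**Figure D2:**
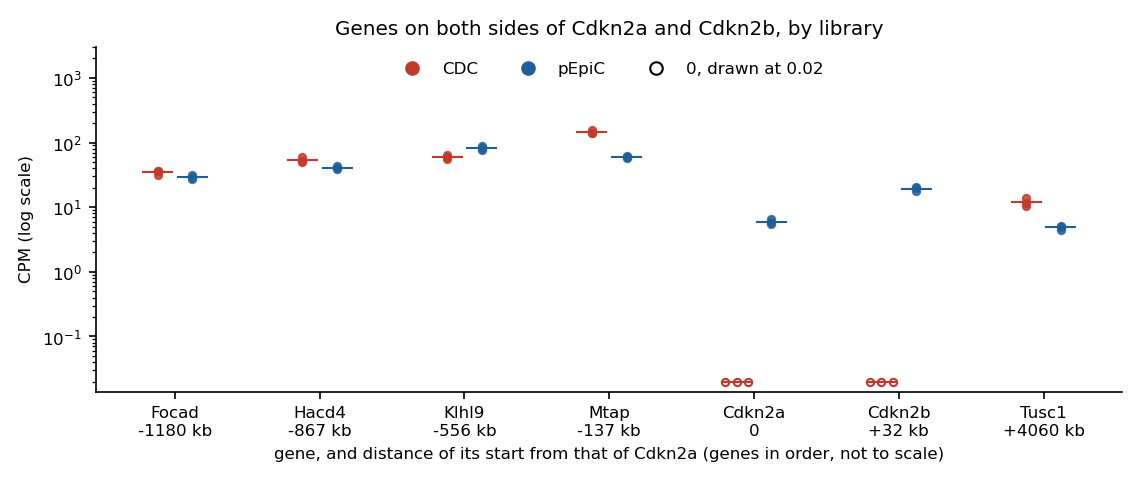
CPM in each library on a log axis for the genes above 5 CPM around Cdkn2a and Cdkn2b, in their order on the chromosome, with the distance of each start from that of Cdkn2a in kb; points are libraries, bars are means and open circles are values of 0. Both Cdkn2 genes are at 0 in the 3 CDC libraries and detected in the 3 pEpiC libraries, while Mtap is expressed in all 6.

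Genes of energy supply were mostly higher in CDC. Of 24 glycolysis genes, 17 rose and 5 fell, with a median log2 change of 1.27 (1.48 with the length offset). Their CPM summed to 2.25% ± 0.178 of the TMM-scaled library size in CDC and 0.61% ± 0.0318 in pEpiCs (SD, n = 3). Gapdh had 8187, 7279.9 and 6674 CPM in CDC and 1649, 1526 and 1692 CPM in pEpiCs. Ldha, the lactate dehydrogenase subunit that favours lactate, rose 5.18-fold, whereas Ldhb, which favours pyruvate, fell 2.01-fold. Tpi1, triose phosphate isomerase, had the largest rise on the list, 6.06-fold. The lactate exporter Slc16a3 rose 4.0-fold and the glucose transporter Slc2a1 2.02-fold. Among the genes that fell were Aldoc, an aldolase of brain (16.2-fold), and the glucose transporter Slc2a3 (3.2-fold).

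Of 75 respiratory chain subunits, 73 were higher in CDC and none lower, and of 79 cytosolic ribosomal proteins, 76 were higher and none lower. These transcripts are short, with median lengths of 675 and 660 bases against 2899 bases over all genes tested. With the length offset the median log2 change of the respiratory chain went from 1.31 to 0.49, with 64 higher and 1 lower, and that of the ribosomal proteins from 1.04 to 0.23, with 45 higher and 18 lower. The median over all genes with the offset was 0.12, so the ribosomal proteins stood close to other genes of their length. Proteasome subunits, with a median length of 1325 bases, gave 30 higher and none lower of 31, and 27 higher with the offset. Ribosome biogenesis genes gave 32 higher and 4 lower of 44.

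Of 31 genes of NRF2 and glutathione, which guard against oxidants, 22 rose and 4 fell (21 and 7 with the length offset). The intracellular peroxidases rose, Gpx1 6.0-fold and Gpx4, which protects lipids, 3.01-fold (1.97-fold with the length offset), while the secreted Gpx3 had 749.6, 696 and 615 CPM in pEpiCs and 2.56, 2.18 and 1.36 CPM in CDC. Aldh3a1, an aldehyde dehydrogenase, rose from 0.299 ± 0.128 to 16 ± 1.83 CPM. Slc7a11, the cystine importer, fell 5.91-fold (3.46-fold with the length offset).

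Genes of growth factors and their carriers moved both ways. Of 27 genes of the IGF axis and of imprinted growth control, 6 rose and 17 fell (10 and 15 with the length offset). Beside Igf2, the binding protein Igfbp2 rose 14.1-fold and Igf2bp1, an RNA-binding protein of fetal tissues, 8.49-fold (14.2-fold with the offset). The binding proteins Igfbp5, with 529, 602 and 489.6 CPM in pEpiCs and 0.839, 0.926 and 1.0 CPM in CDC, Igfbp6 (123-fold) and Igfbp3 (26.8-fold) fell. Grb10, an imprinted adaptor that dampens insulin and IGF receptor signals, had 326, 359 and 367 CPM in pEpiCs and 4.2, 3.93 and 2.55 CPM in CDC. The level of Igf1 itself was 32.8 ± 0.326 CPM in CDC and 38.9 ± 4.45 CPM in pEpiCs, a fall of 1.19-fold (adjusted p = 0.019) that was a rise of 1.34-fold with the length offset (adjusted p = 0.0013, edgeR). Of 33 genes of FGF signalling and ERK feedback, 15 rose and 14 fell, beside 38.5% and 39.8% of all genes tested. The sign of their median turned with library size alone and with TPM. Fgf10, a ligand of mesenchyme, fell 70.0-fold and its neighbour in the family Fgf7 rose 1.66-fold. The receptor gene Fgfr1 fell 2.48-fold. Genes switched on by ERK signals included Phlda1 (3.74-fold higher) and Ier3 (4.28-fold higher), while Spry1 and Spry2, feedback inhibitors, fell 2.15-fold and 2.29-fold.

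Among 32 angiogenic and paracrine factors, 14 rose and 16 fell, beside 38.5% and 39.8% of all genes tested. Their median changed sign where at least 10 counts in every library were asked for. Kitl, stem cell factor, had 96.3, 92.7 and 96.4 CPM in CDC and 28, 25.2 and 25.8 CPM in pEpiCs. Gdnf, the glial neurotrophic factor, rose 10.2-fold, and Angptl4, a lipase inhibitor, 4.82-fold. The heparin-binding factors Mdk, with 28.8 ± 2.32 CPM in pEpiCs and 0.107 ± 0.104 CPM in CDC, and Ptn, with 33.5 ± 3.04 and 0.141 ± 0.164 CPM, fell. Hgf, hepatocyte growth factor, fell 7.05-fold, and Vegfa 1.37-fold. Of 33 chemokines and interleukins, 17 rose and 12 fell, and without 6 macrophage markers or genes raised in pEpiC library 1, 16 of 27 rose and 8 fell. Cxcl12, which recruits cells that bear CXCR4, had 3251, 3324 and 3709.8 CPM in CDC and 1061, 1044 and 993 CPM in pEpiCs. Cxcl5, a neutrophil attractant, rose 26.5-fold, and Ccl2 and Ccl7, monocyte attractants, 3.14-fold and 3.36-fold (1.9-fold and 2.02-fold with the length offset). Il33, an alarmin of stromal cells, fell 10.3-fold. Ccl3, Ccl6 and Ccl9, which were lower in CDC, belong to the macrophage list and were 4.76, 2.55 and 2.25 times as high in pEpiC library 1 as in the others.

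Matrix genes moved both ways within each family. Of 32 collagen genes, 6 rose and 21 fell, with 10 and 18 with the length offset, collagen transcripts being long (median 6418 bases). The median log2 change was -1.03 without the offset and -0.31 with it. Their CPM summed to 1.89% ± 0.21 of the TMM-scaled library size in CDC and 4.27% ± 0.188 in pEpiCs (SD, n = 3). Col3a1, a fibrillar collagen, had 1275, 1027 and 1568 CPM in CDC and 8617, 8868 and 9019 CPM in pEpiCs, a fall of 6.85-fold (4.72-fold with the offset). Col14a1, which binds to collagen fibrils, fell 15-fold (9.86-fold). Col1a1, the alpha 1 chain of collagen I, fell 2.01-fold, and 1.35-fold with the offset.

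The chains of collagen VI parted from each other. Collagen VI is built from an alpha 1, an alpha 2 and, in most tissues, an alpha 3 chain. Col6a1 had 1172, 1076 and 1163 CPM in CDC and 323, 318 and 305 CPM in pEpiCs. Col6a2 had 706, 628 and 694 CPM in CDC and 149, 147 and 145 CPM in pEpiCs. Both rose without overlap, 3.6-fold and 4.6-fold. Col6a3 had 0.28, 0.37 and 0.136 CPM in CDC and 35.3, 38.8 and 36.4 CPM in pEpiCs and fell 138-fold (80.7-fold with the offset), again without overlap. Likewise Col4a6, a chain of basement membrane collagen, rose 5.72-fold (8.86-fold) while Col4a1 and Col4a2 fell 1.9-fold and 2.54-fold (1.23-fold and 1.65-fold with the offset).

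Of 13 small leucine-rich proteoglycans, which coat collagen fibrils, 11 fell and 1 rose, with and without the offset, at a median log2 change of -1.99. Lum, lumican, had 348, 348 and 336 CPM in pEpiCs and 7.55, 9.26 and 11 CPM in CDC. Dcn, decorin, fell 3.58-fold, Ogn, osteoglycin, 13.9-fold and Prelp, an anchor of basement membranes, 3.96-fold. Podnl1, a podocan-like member, was the one that rose, to 6.19 ± 0.429 CPM. The 46 matricellular and elastic fibre genes held 16 that rose and 25 that fell, and their median changed sign with the length offset, from -0.31 to 0.09, where 21 rose and 21 fell. Eln, elastin, fell 14.8-fold, the calcium-binding matrix protein Smoc2 44.4-fold and the latent TGF-beta binding protein Ltbp2 25.9-fold (16.6-fold with the offset). Another of that family, Ltbp1, rose 6.48-fold, and Nid2, a basement membrane linker, 5.31-fold, whereas its relative Nid1 fell 3.4-fold (2.27-fold with the offset). Vcan, versican, a proteoglycan of provisional matrix, rose 3.49-fold (5.99-fold with the offset). Among 38 matrix proteases and inhibitors, 10 rose and 25 fell. The metalloprotease inhibitor Timp1 rose 4.52-fold (2.84-fold with the offset), and the collagenase Mmp13 rose 13.8-fold. Of 29 integrins and laminins, 3 rose and 19 fell (9 and 17 with the length offset). Lama2, the laminin chain of muscle, fell 52.4-fold (30.2-fold with the offset), and Lama5 rose 2.26-fold (4.12-fold). Itga11, a collagen receptor of fibroblasts, fell 15.9-fold.

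Genes of the stromal surface also moved both ways. Pdgfra, the receptor that marks cardiac fibroblasts, had 364, 344 and 327 CPM in pEpiCs and 28.8, 24.9 and 34.2 CPM in CDC, and Pdgfrb, the PDGF receptor of mural cells, fell 3.94-fold. Alcam, an adhesion molecule, and Anpep, the peptidase CD13, fell 18-fold and 28.8-fold. Cd34, Cd44 and Thy1, surface proteins used to sort stromal and progenitor cells, rose 3.52-fold, 2.53-fold and 2.46-fold. On the list of 31 such genes, 15 rose and 14 fell, beside 38.5% and 39.8% of all genes tested. The list median turned sign with library size alone, no filter or TPM. Of 21 smooth muscle contractile genes, 8 rose and 8 fell, with a median that turned sign with the length offset. Acta2, smooth muscle actin, rose 3.69-fold, to 1979 ± 243 CPM, and Des, desmin, stood at 1.99 ± 1.12 CPM in CDC and 84.4 ± 8.44 CPM in pEpiCs.

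Mesothelial genes split as well. Krt19, a keratin of simple epithelia, had 42, 36.7 and 28.9 CPM in CDC and 1.28, 0.981 and 1.33 CPM in pEpiCs, while Krt7, Krt8 and Krt18 stood at 6.41 ± 0.787, 2.71 ± 0.151 and 1.99 ± 0.479 CPM in pEpiCs and fell 8.81-fold, 9.6-fold and 12.5-fold. Upk1b and Upk3b, uroplakins, and Msln, mesothelin, rose 3.06-fold, 3.41-fold and 1.82-fold. Cdh1, E-cadherin, which holds epithelial cells together, was low in both kinds, with 3.17, 3.38 and 4.73 CPM in CDC and 0.0426, 0.0853 and 0.129 CPM in pEpiCs, and Cdh2, N-cadherin, rose 2.15-fold to 701 ± 70.6 CPM. Muc16, a mesothelial mucin, fell from 4.96 ± 0.988 CPM to 0.0152 ± 0.0262 CPM, and Gas1, a growth arrest gene, fell 27.2-fold.

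Of 30 epicardial and cardiac transcription factors, 6 were higher and 21 lower in CDC. Wt1, a regulator of the epicardium, had 46.1, 53.4 and 50.9 CPM in pEpiCs and 9.42, 9.68 and 11.4 CPM in CDC. Tcf21, a regulator of the fibroblast lineage, had 107, 99.3 and 93.6 CPM in pEpiCs and 12.2, 12.6 and 12.5 CPM in CDC. Tbx18, another epicardial regulator, had 96.6, 95.2 and 89.6 CPM in CDC and 48.6, 49.1 and 47 CPM in pEpiCs and so moved the other way, 1.94-fold, or 2.63-fold with the length offset. Gata4 and Hand2, cardiac regulators, rose 2.18-fold and 2.0-fold, and Tbx20, Meis2 and Sox9 fell 3.62-fold (2.39-fold with the offset), 5.21-fold and 5.45-fold. Of the other genes of an epicardial panel that the study displays, Aldh1a2, which makes retinoic acid, fell 8.4-fold and Lrp2, an endocytic receptor, 4.6-fold (2.28-fold with the offset). Tjp1 and Ets1, which fell 1.66-fold and 1.45-fold, lost their call with the offset (adjusted p = 0.31 and 0.52). The panel was taken from the study, so its direction is not counted as independent evidence.

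**Figure D3:**
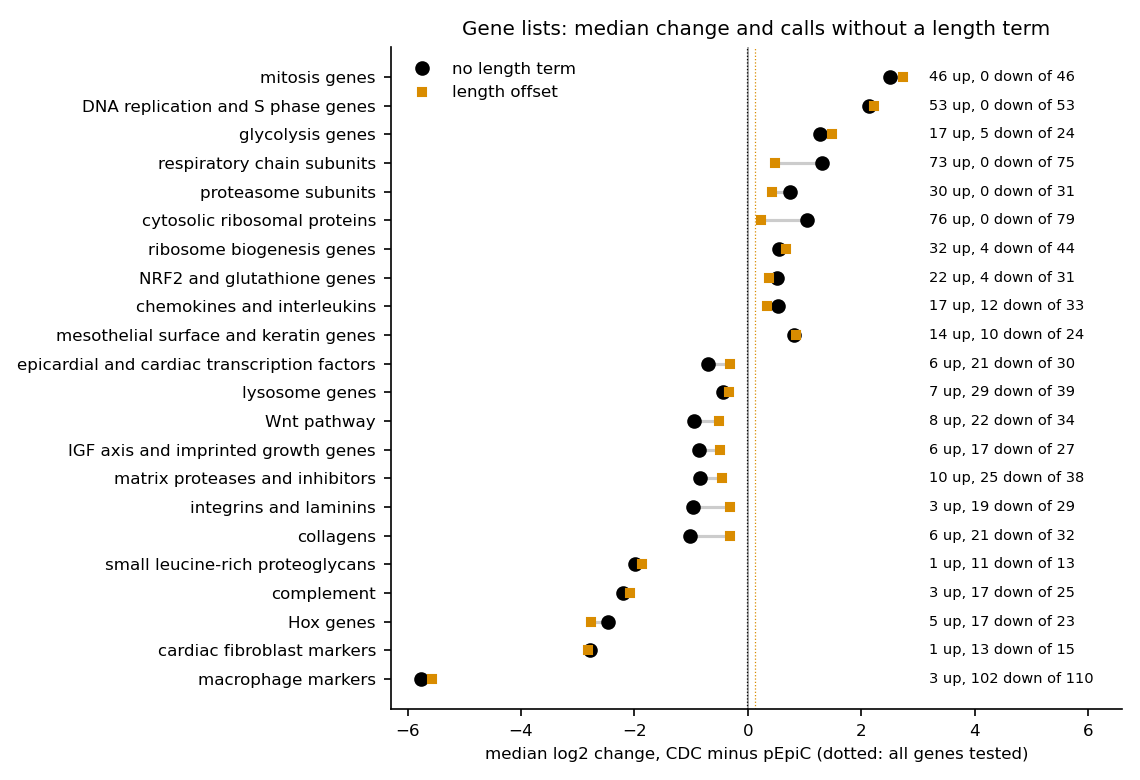
Median log2 change (CDC minus pEpiC) of the tested members of 22 gene lists, without a length term (circles) and with the length offset (squares); the counts give members called higher (up) and lower (down) of those tested. Mitosis genes stand at 2.51 and macrophage markers at -5.76, and of the 22 lists drawn the respiratory chain, ribosomal proteins and collagens move most with the offset.

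The Hox genes tested fell together in the HoxC and HoxD clusters and moved both ways in HoxA and HoxB. These genes encode transcription factors that mark position along the body, and in each of 4 clusters they are ordered from low to high numbers. Of 23 Hox genes tested, 5 were higher and 17 lower in CDC, their median log2 change being -2.47, and 7 had at most 3 counts in every CDC library. The HoxC cluster summed to 25.9 to 26.9 CPM in pEpiCs and to 0.452 to 0.560 CPM in CDC. The HoxD cluster summed to 11.3 to 11.9 CPM in pEpiCs and to 0 to 0.0910 CPM in CDC. Both clusters were thus next to silent in CDC and expressed in each pEpiC library. Hoxc4 was at least 83.5-fold and Hoxd8 at least 50.3-fold lower in CDC. The HoxB cluster was higher in sum, with 98.6 to 101 CPM in CDC and 83.7 to 90.4 CPM in pEpiCs. Within it, Hoxb2 rose 2.17-fold, and Hoxb3 and Hoxb4 rose 1.2-fold each, although both signs turned with TPM. The 5 genes of higher number, Hoxb5 to Hoxb9, fell, Hoxb5 by 6.36-fold and Hoxb7 by 9.41-fold. In the HoxA cluster Hoxa7 rose and Hoxa2 to Hoxa5 fell, Hoxa5 from 25.5 ± 1.9 to 7.55 ± 0.0895 CPM.

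**Figure D4:**
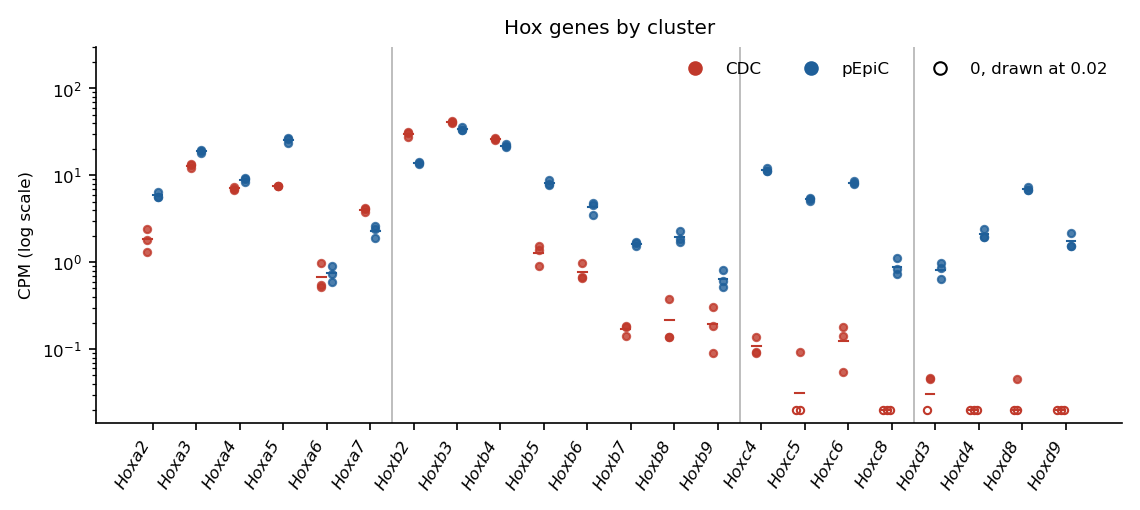
CPM in each library on a log axis for 22 of the Hox genes tested, grouped by cluster and ordered by number; points are libraries, bars are means and open circles are values of 0. The HoxC and HoxD genes lie below 0.2 CPM in every CDC library, while Hoxb2 to Hoxb4 lie at or above the pEpiC level.

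Of 34 Wnt pathway genes, 8 rose and 22 fell (9 and 19 with the length offset). The secreted Wnt antagonist Frzb had 93.2, 95.1 and 96.5 CPM in pEpiCs and 3.59, 3.8 and 5.05 CPM in CDC. The ligand Wnt5a fell 5.47-fold and Axin2, a target of the pathway, 2.2-fold. Of 31 genes of the BMP pathway, 12 rose and 17 fell (13 and 14 with the length offset). The ligand Bmp4 rose 4.14-fold, and Id1, a target of BMP signals, 3.81-fold (2.46-fold with the offset), while Bmp6 and the receptor Acvrl1 fell 12.1-fold and 10.4-fold. TGF-beta targets gave 5 higher and 9 lower of 15, with Postn among those that fell.

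Of 25 complement genes, 17 fell and 3 rose. Without 6 that are macrophage markers or exceeded 1.8 times in pEpiC library 1, 11 of 19 fell and 3 rose. Among the 6, C1qa, C1qb and C1qc, made chiefly by macrophages, were 2.93, 3.09 and 3.05 times as high in pEpiC library 1 as in the others. A gene without that mark was Serping1, the C1 inhibitor, with 917, 842 and 855 CPM in pEpiCs and 18.6, 16.6 and 25.2 CPM in CDC. Cd59a, which blocks the membrane attack complex, had 22.4, 19.8 and 21.3 CPM in pEpiCs and was at least 153-fold lower in CDC. Of 39 lysosome genes, 29 fell and 7 rose, with a median log2 change of -0.44, and 27 of 37 fell without 2 such genes. Of 46 interferon-stimulated genes, 17 fell, 5 rose and 24 were not called, but the count that fell was 24 without pEpiC library 1, 9 without CDC library 1 and 10 without CDC library 2, and 28 fell and 7 rose with the library number as a replicate block. Of 9 endothelial markers tested, 6 fell. Tek had 16.1, 18.5 and 17.3 CPM in pEpiCs and 0.14, 0.139 and 0.0909 CPM in CDC, while Pecam1 and Cdh5, which define endothelium, were below 1 CPM in the mean of either kind. Lpl, lipoprotein lipase, and Fabp4, a fatty acid carrier, both on the adipocyte list, fell 10.4-fold and 18.6-fold (34.6-fold with the offset).

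The size of a change depended on transcript length. The log2 change fell by 0.430 per doubling of transcript length, taken over the 10681 genes whose mean exceeded 5 CPM. The 9 pairs of a CDC with a pEpiC library gave slopes of -0.504 to -0.345, and pairs of libraries of the same kind gave -0.115 to 0.0533, so that every slope between the kinds was larger in size than every slope within one. The median log2 change was 1.26 for the 128 genes under 500 bases and -0.59 for the 1543 genes from 6000 bases upward. With the offset these medians were 0.17 and 0.12. Genes called higher had a median length of 2083 bases and genes called lower one of 3794 bases. The mean transcript length weighted by counts was 3068 to 3285 bases in CDC and 3870 to 3964 bases in pEpiCs, with no overlap. Of the 10593 calls, 1760 lost the call with the offset and 501 were called with the opposite sign, and every reversal was among changes of less than 2-fold. Of changes of at least 2-fold 97.6% held, and of the 6518 smaller ones 66.8%. A small change of a short or long gene between these kinds therefore depends on whether length is allowed for. The part of RNA quality and of library preparation in the slope was not tested.

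**Figure D5:**
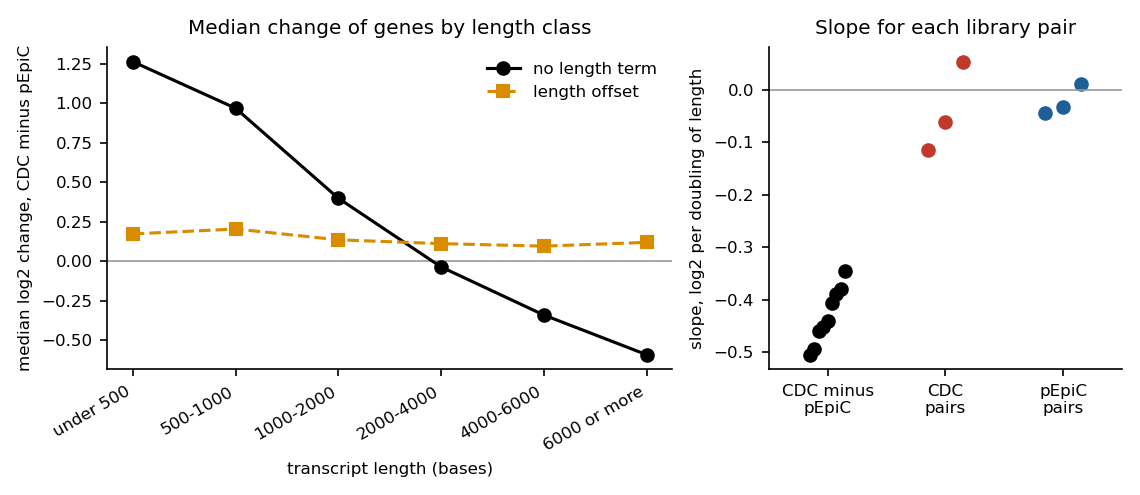
Left, median log2 change (CDC minus pEpiC) of the tested genes in 6 classes of transcript length in bases, without a length term and with the length offset. Right, slope of the log2 change per doubling of length for each pair of libraries, with the 9 pairs between kinds at -0.504 to -0.345 and the pairs within a kind at -0.115 to 0.0533.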

How the data were processed

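Messenger RNA was enriched on oligo(dT) beads and copied from random hexamers, and both ends of the fragments were sequenced over 100 bases (BGISEQ-500). The submitters' processing notes name HISAT2 2.0.4, Bowtie2 2.2.5, RSEM 1.2.12, DESeq2 1.4.5 and the build mm10. The authors deposited expected counts per gene, estimated by RSEM, with FPKM and TPM columns beside them. Expected counts were rounded and tested in edgeR 4.0.16 (R 4.3.3) with filterByExpr (at least 10 counts in 3 libraries), TMM scaling, the quasi-likelihood test and Benjamini-Hochberg adjustment, on the 6 libraries with no covariate. The deposited TPM and FPKM values were tested as log2(TPM + 1) and log2(FPKM + 1) in limma 3.58.1 as alternatives. DESeq2 1.42.0, other scalings and filters, a replicate block and a length offset from a smooth trend per library were also tried, and scripts were tested on simulated data. Named genes were the 25 largest rises and falls under the criteria given in the text, members of each list with the most counts or the largest changes (up to 4), and a panel of 8 genes, and any other gene was chosen after its values were seen. Members and lists were chosen with earlier results of these data known. Positions come from RefSeq GRCm38.p6 by gene ID (18117 of 18245 matched).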

Additional observations from a re-analysis of the deposited data

How the results depend on the processing

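The counts of calls stayed within 1.5 times of those reported under all of 17 alternatives but the following. Against a change of 1.5-fold, 2748 genes were higher, 2801 lower and 3863 held with the length offset. With log2(TPM + 1), 2687 genes were higher, 772 of them at least 2-fold. With log2(FPKM + 1), 1193 were at least 2-fold higher and 1193 at least 2-fold lower. With at least 10 counts in every library, 1388 were at least 2-fold lower, fewer genes being tested. The cause of the other shifts was not tested. Leaving out each library in turn gave 4981 to 5313 genes higher and 5092 to 5525 lower, 1887 to 2124 and 2149 to 2299 of them at least 2-fold, 7825 to 8471 calls that held with the length offset, and slopes on length of -0.461 to -0.402. Deviations of same-numbered libraries correlated at 0.110, -0.0351 and 0.170, against -0.159 to 0.102 for libraries of different number. Interferon-stimulated genes, however, summed highest in library 3 of both kinds. Whether libraries of the same number share an origin is not known. With the number as a replicate block 5215 genes were higher and 5389 lower, and among interferon-stimulated genes 28 were lower against 17. Of 186 genes named, 3 changed sign under an alternative: Igf1 with the length offset (log2 change 0.42), and Hoxb3 (-0.17) and Hoxb4 (-0.23) with log2(TPM + 1). Over their 3108 values, 29 kept the direction but missed the threshold. Of the counts of members called in a list, 133 moved by over 1.5 times. The counts of 3 lists without macrophage markers and genes raised in pEpiC library 1 are an alternative chosen after seeing the data, and there 11 complement genes were lower against 17. The median of 14 of 48 gene lists took the opposite sign under some alternative. With 3 libraries a kind of unknown origin, and medium, coating and dissociation tied to the kind, no part of a difference can be given to any of them.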
